A study of Mus musculus with 2 samples.

Results

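The 9 genes described here are abundant or well-known long noncoding RNAs (lncRNAs), RNAs that are not translated into protein. They are 7 hosts of small nucleolar RNAs (snoRNAs), Gas5, Snhg1, Snhg3, Snhg5, Snhg6, Snhg8 and Snhg12, and 2 nuclear lncRNAs, Malat1 and Neat1. They were chosen by name, and all 9 names were matched among the 54531 Ensembl genes of the deposited table. RNA came from mouse bone marrow cells labelled as haematopoietic stem cells (HSCs). The control library is labelled Angptl2fl/fl, with floxed alleles of Angptl2, a secreted angiopoietin-like protein. The deletion library is labelled Cdh5-Cre;Angptl2fl/fl, with the same alleles and a Cre recombinase under the promoter of the endothelial cadherin gene Cdh5, and its label describes a loss of Angptl2 in endothelial cells. The description of the control sample names Cdh5 and Cre but no floxed allele, so whether it carried Cre is unclear. A single library stood for each genotype, so there was no replicate check and no test. The sources used here do not give the number of mice, their age or how the cells were isolated. "Higher" and "lower" describe these 2 libraries.

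A snoRNA host gene carries snoRNAs in some of its introns, and splicing releases them. Most snoRNAs guide methylation or pseudouridylation of ribosomal RNA. Many noncoding hosts, Gas5 among them, begin with a terminal oligopyrimidine (TOP) tract, the start signal that ribosomal protein mRNAs carry, and their spliced exons are removed by nonsense-mediated decay when ribosomes engage them. Malat1 stays in the nucleus at speckles rich in splicing factors. Neat1 is the scaffold of paraspeckles, nuclear bodies that hold proteins and RNAs, and is made as a short and a long isoform from the same start.

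The hosts carry 29 annotated snoRNA genes on their own strand, 10 in Gas5, 8 in Snhg1, 5 in Snhg12, 2 each in Snhg3 and Snhg5, and 1 each in Snhg6 and Snhg8. These are counts of annotated entries. Snord80 in Gas5 and Snora16a in Snhg12 are each entered as 2 overlapping genes, so there are fewer distinct guides. The guides fall in 2 classes, box C/D and box H/ACA. The sequences below show 1 guide from each of 4 hosts, because the deposited table listed only the Snhg6 guide above 0. They are GENCODE M21 transcripts on GRCm38, written 5′ to 3′ as DNA letters. Capitals mark the first TGATGA (box C) and the last CTGA (box D), or the ACA near the 3′ end of the H/ACA guide.
Snord47 (in Gas5, chr1:161038082-161038158, plus strand): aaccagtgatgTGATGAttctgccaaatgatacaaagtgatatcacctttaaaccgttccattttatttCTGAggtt
Snord50a (in Snhg5, chr9:88521529-88521600, minus strand): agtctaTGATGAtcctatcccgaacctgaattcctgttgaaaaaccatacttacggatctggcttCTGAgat
Snord87 (in Snhg6, chr1:9942463-9942549, minus strand): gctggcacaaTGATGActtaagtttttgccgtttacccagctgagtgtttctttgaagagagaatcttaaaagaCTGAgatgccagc
Snora24 (in Snhg8, chr3:123507937-123508066, minus strand): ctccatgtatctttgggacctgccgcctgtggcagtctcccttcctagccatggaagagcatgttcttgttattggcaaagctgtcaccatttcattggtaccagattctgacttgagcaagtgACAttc
Read as transcribed, TGATGA was in 18 of the 29 hosted entries and in 26.1% of all 1507 annotated snoRNA genes. CTGA was in 28 of the 29 and in 79.5% of the 1507. These counts take both classes together. The H/ACA guide Snora24 also holds a CTGA, so the CTGA counts are not counts of box D.

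The starts of the hosts are shown next, since the TOP tract is what places several of them beside ribosomal protein genes. RefSeq promoter windows on GRCm38.p6 were found for 7 of the 9 genes, all but Snhg6 and Neat1, and Gas5 has 2 annotated starts, of which the downstream is printed. Each line holds 30 bases before the start and the first 50 transcribed bases, with the run of C and T from the first transcribed base in capitals.
Gas5 (chr1:161035136-161035215, plus strand): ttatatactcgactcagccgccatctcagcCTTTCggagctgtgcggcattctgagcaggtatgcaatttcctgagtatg
Snhg8 (chr3:123508287-123508366, minus strand): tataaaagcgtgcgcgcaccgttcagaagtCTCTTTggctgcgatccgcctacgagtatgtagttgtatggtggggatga
Snhg12 (chr4:132308648-132308727, plus strand): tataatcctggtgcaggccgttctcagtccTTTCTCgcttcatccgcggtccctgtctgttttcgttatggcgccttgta
Snhg1 (chr19:8723457-8723536, plus strand): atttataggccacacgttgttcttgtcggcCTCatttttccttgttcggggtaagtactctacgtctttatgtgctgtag
Malat1 (chr19:5802623-5802702, minus strand): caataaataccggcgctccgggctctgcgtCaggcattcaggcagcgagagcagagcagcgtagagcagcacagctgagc
The run was 5 bases at the printed Gas5 start, 6 at Snhg8, 6 at Snhg12, 3 at Snhg1 and 1 at Malat1. It was 0 at Snhg5, at Snhg3 and at the upstream Gas5 start. Longer runs begin a few bases further in at Snhg1 (9 bases), Snhg5 (7) and Snhg3 (5), and no share over all windows is given for such runs. A run of 4 or more from the first base was found at 6.86% of 32851 RefSeq windows, and one that also began with C at 3.76%. The Snhg12 run begins with T. These are annotated starts, not starts measured in these cells.

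The libraries had been scaled to 17378620 fragments (control) and 16843116 fragments (deletion), read from the steps in the values. HSC and progenitor genes were present in both, with 11 of 12 markers at a mean of at least 1 FPKM, among them Kit at 54.3 and 48.8 FPKM in the control and deletion libraries, and Slamf1 below that mean at 0.40 and 0.55. Of those 11, 10 lay below a log2 ratio of 0, with a median of -0.16 and none past 2-fold. The lowest were Ly6a, the stem cell antigen Sca-1, at 4.49 and 2.86 FPKM (log2 ratio -0.51) and Cd34, a progenitor surface antigen, at 7.87 and 5.43 FPKM (-0.46). The marker above 0 was Cd48, a surface antigen of more mature progenitors, at 8.23 and 16.3 FPKM, 1.98-fold higher. Markers of maturing cells were present too, and for 11 neutrophil and monocyte markers the sum was 3311 FPKM in the control and 3269 FPKM in the deletion library. The near-equal sums hide opposite differences, with 2 of the 11 at least 2-fold higher, 7 at least 2-fold lower and a median log2 ratio of -1.25. The 2 higher were Mpo (281 and 723 FPKM) and Elane (423 and 1084 FPKM). The lowest ratios were those of Csf1r (4.44 and 0.75 FPKM) and Ltf (112 and 36.3 FPKM). The sums of B and plasma cell markers were 34.1 and 31.3 FPKM, and those of erythroid markers 1664 and 1963 FPKM. None of the markers in these lists was listed at 0. Angptl2 itself was at 0.265 FPKM in the control and 0.179 FPKM in the deletion library. Both levels are too low to check the labels, which describe the loss in endothelial cells. Whether Angptl2 was also deleted in the profiled cells was not tested. In bulk RNA, fewer cells of a type and less RNA per cell cannot be told apart.

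Most of these genes stood at nearly the same level in both libraries, and the clearest difference was a lower level of both nuclear lncRNAs. Malat1 and Neat1 each stood at about 0.69 of their control level in the deletion library. Snhg12 was slightly lower, Snhg3 was close to absent, and the other 5 hosts had ratios of no more than 1.19, which, except for Snhg1 and Snhg6, depend in direction on how the libraries are scaled. On the log2(FPKM + 1) scale, none of the 8 members with a mean of at least 1 FPKM was 2-fold higher or 2-fold lower. Of all 12325 genes at that mean, 2.47% were at least 2-fold higher and 3.38% at least 2-fold lower, and of 606 long noncoding genes 6.44% and 7.43%. At 1.5-fold, with FPKM as deposited, the count of members was also 0 either way, beside 5.74% higher and 6.08% lower of all genes and 14.5% and 14.2% of long noncoding genes. Counts of 0 among 8 are near these backgrounds. The lower count at 1.5-fold depended on the scaling: for the same 8 genes it was 2, Malat1 and Neat1, with both libraries brought to a common total of FPKM, and 1, Malat1, with totals that leave out mitochondrial genes. The higher count stayed 0. On the common total 5.37% of all genes were 1.5-fold higher and 11% lower, and without mitochondrial genes 5.05% and 7.07%. The ninth member, Snhg3, had a mean of 0.75 FPKM and was not counted.

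**Figure D1:**
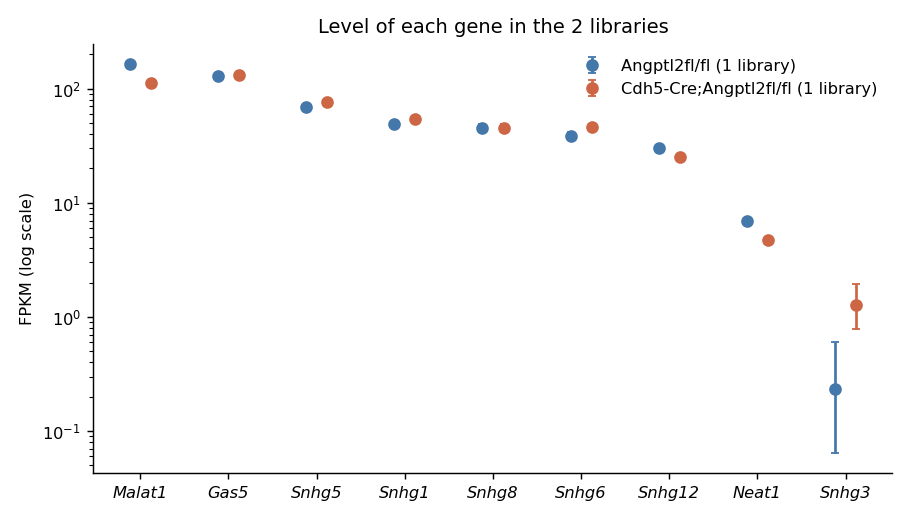
Level of each of the 9 genes in FPKM on a log axis, with 1 point per library and the exact 95% Poisson interval of its fragment count, which is smaller than the point for most genes. Malat1 falls from 164 to 113 FPKM, the 6 expressed hosts lie between 25.4 and 132 FPKM, and Snhg3 is lowest in both libraries.

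Malat1 (chromosome 19, 5795690 to 5802672, minus strand, GRCm38; a lincRNA annotated as 4 transcripts) was at 164 FPKM in control cells and 113 FPKM in cells of the deletion genotype. Those levels came from 19931 and 13232 fragments, or 0.115% and 0.0786% of the depth. The deletion level was 0.685 of the control level, and the 95% counting interval of that ratio ran from 0.670 to 0.700. Of all genes tested, 6.80% had a lower ratio, and for Neat1 8.79%. Malat1 was the fourth most abundant long noncoding gene of the control library and the fifth of the deletion library.

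Neat1 (chromosome 19, 5824708 to 5845478, minus strand) lies 22.0 kb from Malat1 and was measured at 6.88 FPKM in the control and 4.73 FPKM in the deletion library. The fragments were 2484 and 1655. The deletion level was 0.687 of the control level, with a counting interval from 0.646 to 0.732, which overlaps that of Malat1. The level of Malat1 relative to Neat1 was accordingly 23.9 in the control and 23.8 in the deletion library. The gene model spans 20771 bases and so covers the long isoform. A gene-level value does not separate the long from the short isoform, and FPKM spreads fragments of the short one over the whole length.

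The sum of both nuclear lncRNAs was 171 FPKM in the control and 117 FPKM in the deletion library, a log2 ratio of -0.55. Each stayed below 0 under every pseudocount and scaling tried, between -0.69 and -0.53 for Malat1 and between -0.64 and -0.29 for Neat1. Counting error is small at these fragment numbers, but it covers neither the difference between mice nor that between preparations, for which there was no measure. Long gene models leaned the same way in general. Over the 12325 genes above, the median log2 ratio was 0.09 for 1406 genes with 1 to 2 kb of exon, 0.02 for 4746 genes with 2 to 5 kb, -0.06 for 3441 genes with 5 to 10 kb, -0.13 for 874 genes with 10 to 20 kb and -0.22 for 59 genes with 20 kb or more. Relative to the median of genes of like exon length, a comparison chosen after seeing the data, Malat1 stood at -0.48 and Neat1 at -0.24. These differences stood beside those of Ly6a, Cd34 and Cd48 and of the neutrophil and monocyte markers given above. The part of RNA length and of cell makeup in them was not tested.

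**Figure D2:**
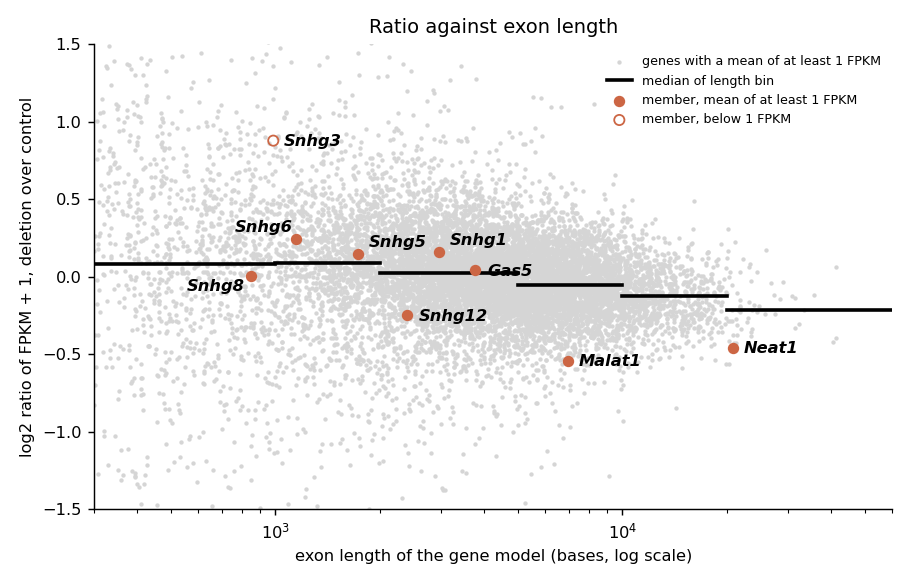
Log2 ratio of FPKM + 1, deletion over control, against the exon length of the gene model on a log axis, for 11560 genes (grey), with the median of each length bin (black lines) and the 9 members (orange; open for Snhg3, below a mean of 1 FPKM). The 755 genes outside the axes are not drawn. The bin medians fall from 0.09 at 1 to 2 kb to -0.22 at 20 kb or more, and Malat1 and Neat1 lie below the median of their bins.

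Gas5, a growth-arrest transcript that hosts box C/D snoRNAs, was the host with the highest level (chromosome 1, 161034422 to 161038539, plus strand). Its 128 FPKM in control cells and 132 FPKM after deletion rested on 8396 and 8366 fragments. The ratio of 1.03 had a counting interval from 0.997 to 1.06, which includes no difference. With both libraries brought to a common total of FPKM, its log2 ratio was -0.11, with an interval from -0.15 to -0.06, so the scaling sets its direction. By FPKM over the merged exons of each gene model, Gas5 ranked below Malat1 in the control library, at 0.782 of the Malat1 level, and above it in the deletion library, at 1.17 times that level. The exchange of places came from the lower Malat1 level and holds for that length only. Over its median annotated transcript of 629 bases, Gas5 would stand above the deposited Malat1 level in both libraries, as given below. That comparison sets unlike lengths side by side. The deposited Malat1 level is taken over all 6983 exon bases of its model, while the median annotated Malat1 transcript has 606.

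Snhg5 (chromosome 9, 88521050 to 88522929, minus strand), host of Snord50a and Snord50b, was at 69.1 FPKM in the control and 76.4 FPKM in the deletion library. The log2 ratio without a pseudocount was 0.14, with a counting interval from 0.06 to 0.23. Snhg1 (chromosome 19, 8723475 to 8726443, plus strand), host of Snord22 and 7 further box C/D entries, was at 48.7 and 54.5 FPKM, from 2515 and 2726 fragments. Its log2 ratio was 0.16, from 0.08 to 0.24. Snhg6 (chromosome 1, 9941959 to 9944118, minus strand), host of Snord87, was at 38.7 and 45.8 FPKM, from 770 and 885 fragments, with a log2 ratio of 0.25 from 0.10 to 0.39. These 3 hosts were slightly higher with the FPKM as deposited. On the common total, where the median over all genes was -0.15 in place of -0.01, the intervals of all 3 included 0: -0.09 to 0.08 for Snhg5, -0.07 to 0.09 for Snhg1 and -0.04 to 0.24 for Snhg6.

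Snhg8 (chromosome 3, 123507552 to 123508404, minus strand), host of the H/ACA guide Snora24, was at 45.2 FPKM in both libraries, from 670 and 650 fragments. Its counting interval ran from -0.16 to 0.16 on the log2 scale, and from -0.30 to 0.01 on the common total. Snhg12 (chromosome 4, 132308623 to 132311024, plus strand), host of Snora16a, Snora44, Snora61 and Snord99, was the host that went down. It was at 30.4 and 25.4 FPKM in control and deletion, with 1269 and 1028 fragments, a log2 ratio of -0.26 from -0.38 to -0.14. It stayed below 0 under each alternative run, between -0.40 and -0.22.

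**Figure D3:**
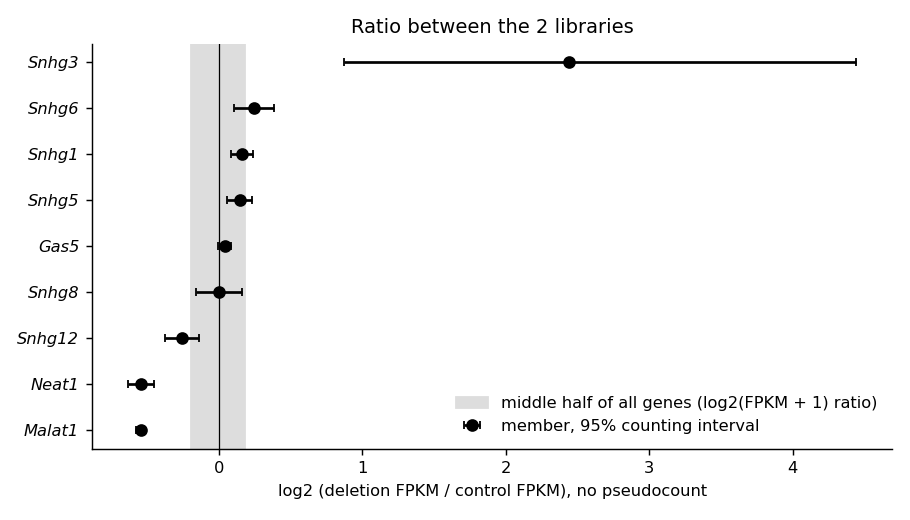
Log2 ratio of FPKM without a pseudocount, deletion over control, for the 9 genes, with 95% counting intervals (bars) and the middle 50% of all genes on the log2(FPKM + 1) scale (grey, -0.20 to 0.18). The points of Malat1, Neat1 and Snhg12 lie left of the grey band, and those of Snhg6 and Snhg3 lie right of it. The intervals of Snhg12 and Snhg6 reach into the band. Those of Gas5 and Snhg8 include 0, and that of Snhg3 runs from 0.87 to 4.44.

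As a group, the 6 hosts at a mean of at least 1 FPKM had a median log2 ratio of 0.09, with 5 above 0 and 1 below, beside a median of -0.01 over all genes and -0.01 over long noncoding genes. With a common total, the median of the same 6 hosts was -0.06, and it was -0.0034 when Snhg3, which then passed the minimum, was counted with them, so the group has no direction that holds under each scaling. The 7 hosts summed to 361 FPKM in the control and 381 FPKM in the deletion library. Set against Malat1 and Neat1 together, that sum was 2.11-fold in the control and 3.25-fold in the deletion library. Both values are for FPKM over the merged exons of each gene model and hold for those lengths only.

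Snhg3 was not an abundant gene in these libraries. Its levels of 0.23 and 1.26 FPKM in control and deletion came from 4 and 21 fragments. The plain ratio was 5.42, with a wide counting interval from 1.83 to 21.7. On the log2(FPKM + 1) scale it was 0.88, short of 2-fold, and it was past 2-fold at 2.03 with a pseudocount of 0.1 and at 1.31 with a common total. Its gene model (chromosome 4, 132348014 to 132353686, minus strand) shares 851 of its 986 exon bases with other genes, which leaves 135. It shares 135 with Rcc1, a protein-coding gene whose start lies 81 bases away on the same strand, and 705 with Gm17300, a lincRNA on the opposite strand. Rcc1, a nucleotide exchange factor for Ran, was at 41.4 and 42.9 FPKM. Gm17300 was at 1.62 and 5.25 FPKM, with 43 and 135 fragments, and so was higher alongside Snhg3. The labels do not say whether strand was used in counting, so reads of the 2 overlapping transcripts cannot be told apart. Spread over the 135 unshared bases alone, the Snhg3 fragments would give 1.70 and 9.24 FPKM, which is still far below the other hosts. Snhg12 lies 37.0 kb away on the opposite strand and differed in the other direction.

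**Figure D4:**
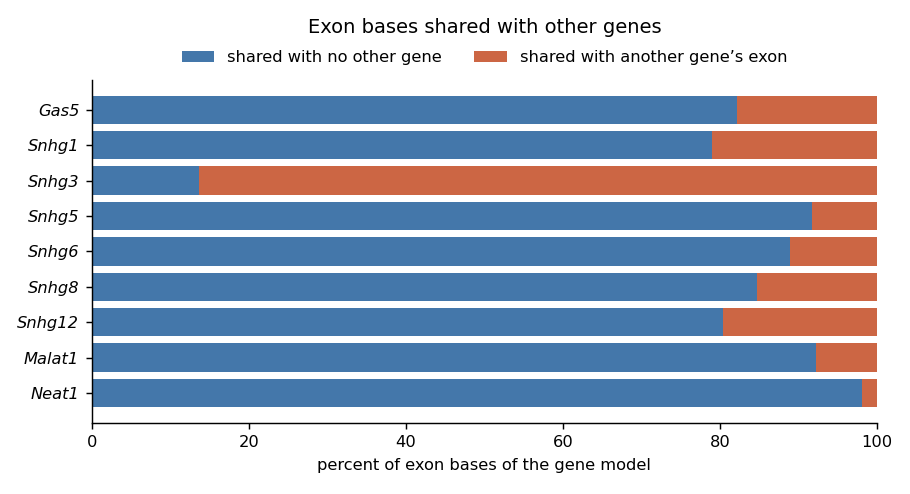
Share of the exon bases of each gene model that no other gene uses (blue) and that another annotated gene also uses (orange), in percent. Snhg3 shares 86.3% of its exon bases, the other 8 genes between 1.85% and 20.9%.

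The snoRNAs themselves were almost unmeasured. Of the 29 hosted entries, 28 were listed at 0 in both libraries. The exception was Snord87 in an intron of Snhg6, at 2.65 and 8.19 FPKM, from only 4 and 12 fragments. These values do not tell the released guide apart from unspliced Snhg6 RNA. Of the 29, 26 lie wholly inside an exon of the host's gene model, because the model merges transcripts that retain introns. Across the annotation, 146 snoRNA genes lie wholly inside an exon of a longer gene, and all 146 were listed at 0 in both libraries. Of 1332 snoRNA genes that touch no such exon, 200 were above 0 in at least 1 library, or 15.0%. A 0 in this table therefore does not show that a hosted guide was missing from the cells.

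The same retained-intron transcripts set the level at which the hosts appear. The Gas5 model counts 91.3% of the gene's span as exon, and those of Snhg1, Snhg8 and Snhg12 count 100%, while the median annotated transcript of Gas5 has 629 bases and that of Snhg1 has 602.5. Fragments of Gas5 divided by its median transcript would give 768 and 790 FPKM, against 128 and 132 FPKM as deposited. On that scale Snhg1 would be at 240 and 269 FPKM and would pass Snhg5 at 144 and 159 FPKM. Snhg12 at 79.8, Snhg6 at 79.3 and Snhg8 at 73.0 FPKM would lie close together in the control library. As deposited, the sequence from high to low in the control library was Gas5, Snhg5, Snhg1, Snhg8, Snhg6 and Snhg12. The exact Poisson intervals of neighbours overlapped for Snhg1 (46.9 to 50.7 FPKM) and Snhg8 (41.8 to 48.8), while the interval of Snhg6 ended at 41.5. In the deletion library Snhg6 and Snhg8 overlapped, at 45.8 and 45.2 FPKM. The ratio between libraries does not depend on the length used.

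Genes that start beside the members, on the opposite strand within 2 kb, differed from them in part. Slc3a2, the heavy chain of amino acid transporters, starts 106 bases from Snhg1 and was at 64.8 and 58.1 FPKM, a log2 ratio of -0.16 from -0.22 to -0.09, where Snhg1 was at 0.16. Zbtb37, a zinc finger gene that starts 427 bases from the annotated start of Gas5, was at 1.5 and 0.96 FPKM, while Gas5 hardly differed. Frmd8os, which starts 145 bases from Neat1, had 8 fragments in the control and was listed at 0 after deletion.

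The genes that work with these RNAs were read out from lists. Their counts above and below 0, like those of the HSC markers, stand beside shares of all genes that change with exon length. Of genes at a mean of at least 1 FPKM, 45.1% lay below 0 under 1 kb of exon. The share was 38.5% at 1 to 2 kb, 46.5% at 2 to 5 kb, 60.8% at 5 to 10 kb and 74.9% at 10 to 20 kb. The part of exon length in the list counts was not tested. Among 13 matched genes of a list of further noncoding hosts, 9 reached a mean of 1 FPKM. None of the 9 passed 2-fold, and 4 lay above 0 and 5 below, with a median of -0.14. The list is not of snoRNA hosts alone. It includes Mir17hg, host of microRNAs, at 5.35 and 5.56 FPKM (log2 ratio 0.05), which is among the 4 above 0. Epb41l4aos was the most abundant at 108 and 90.2 FPKM. Zfas1, at 35.8 and 38.6 FPKM, and Dancr, at 4.58 and 5.29 FPKM, were highest in ratio, and Snhg10, at 3.48 and 2.13 FPKM, and Snhg20, at 6.81 and 5.40 FPKM, were lowest.

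Protein-coding snoRNA hosts, many of them ribosomal protein genes, had 30 of 35 above 0 and a median of 0.18, which was 0.04 with a common total. Rpl23a was at 444 and 683 FPKM and Rps12 at 343 and 501 FPKM, while Tnpo2, a nuclear import receptor, was at 26.7 and 21.6 FPKM. TOP growth genes such as Npm1 (408 and 537 FPKM) had 12 of 16 above 0 and a median of 0.14, which was -0.0043 with a common total. Proteins of the snoRNA particle and its assembly had 17 of 18 above 0 and a median of 0.13, which was -0.01 with a common total. Their highest were Nop10, an H/ACA core protein at 63.2 and 88.8 FPKM, and Snu13, a box C/D core protein at 44.9 and 57.6 FPKM. None of these 3 lists held a gene past 2-fold. The list of protein-coding hosts shares genes with each of the other lists, so the 3 tallies are not independent.

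Nonsense-mediated decay factors were split, 8 above 0 and 8 below, with a median of -0.01. Upf1, the central helicase of the pathway, was at 56.7 and 48.9 FPKM, and Rbm8a, of the exon junction complex, at 31.8 and 40.8 FPKM. Speckle and paraspeckle proteins had 11 of 18 above 0 and a median of 0.01, which was -0.13 with a common total. Their lowest were Son at 36.4 and 30.2 FPKM and Srrm2 at 74.1 and 62.1 FPKM, both large speckle proteins, and their highest Srsf1 at 71.8 and 82.8 FPKM. None of these 34 genes passed 2-fold.

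Of 11 other named lncRNAs at a mean of at least 1 FPKM, 10 lay below 0, with a median of -0.07 and none past 2-fold. Mir22hg, host of a microRNA, was lowest at 3.74 and 1.94 FPKM. Xist, the nuclear RNA of the inactive X chromosome, was at 34.4 and 26.6 FPKM, from 10717 and 8032 fragments. Norad, which lies mainly in the cytoplasm, was at 39.9 and 39.2 FPKM, and Pvt1 was the exception above 0 at 2.20 and 2.94 FPKM.

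**Figure D5:**
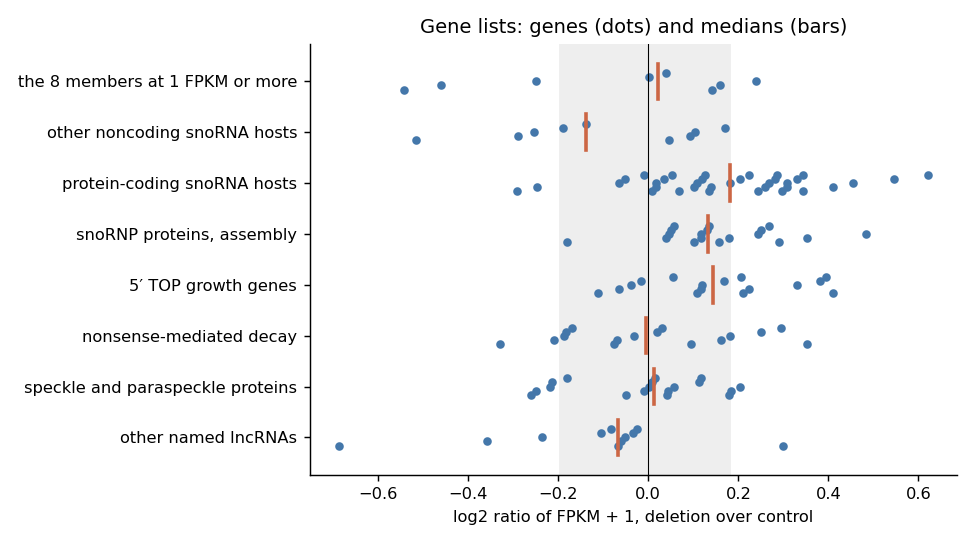
Log2 ratio of FPKM + 1, deletion over control, of each gene (dots) with a mean of at least 1 FPKM in the 8 lists, with list medians (orange bars) and the middle 50% of all genes (grey). No dot lies past 1 in either direction, and the medians run from -0.14 for other noncoding hosts to 0.18 for protein-coding hosts.

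Over the 2 libraries, the genes nearest to Gas5 by Euclidean distance on the log2(FPKM + 1) scale were Srsf7, Ddx3x and Impdh2, at distances of 0.02, 0.03 and 0.04. For Malat1 they were Mcl1, Uba1 and Stard10, at 0.19, 0.21 and 0.22, so no gene matched its pair of values closely. With 2 libraries this measures likeness of level and ratio only.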

How the data were processed

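RNA of 1 library per genotype was sequenced as 150 bp paired-end reads, per the labels' protocols. The authors deposited FPKM (fragments per kilobase of gene model scaled to depth) for 54531 Ensembl genes. The submitters' processing notes list Bowtie 0.12.2 and the build mm8 without saying what each was used for. How fragments were counted, and on which annotation, is not given in the sources used here. Symbols, exon lengths and GRCm38 positions came from GENCODE M21 and were found for 54408 genes. Snhg16, Norad and other renamed genes were matched through RefSeq synonyms. FPKM multiplied by exon length gave whole fragments within 0.02 for 96.5% (control) and 96.1% (deletion) of genes above 0, which gave the depth and fragments per gene. Counting intervals are exact Clopper-Pearson (ratios) or Poisson (levels) intervals at 95% and cover nothing but counting error. Copies made by PCR are not distinct molecules, so where they were counted the intervals are too narrow even for that. Log2 ratios use a pseudocount of 1 FPKM unless stated otherwise, which understates differences of low genes. Lists were counted at a mean of at least 1 FPKM.

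Genes were named by a rule, of which a subset is printed: all 9 members, the 2 highest and 2 lowest ratios of each list, hosted snoRNAs, genes starting within 2 kb on the opposite strand, and the 3 genes nearest to Gas5 and Malat1. Rcc1, Epb41l4aos, Mir17hg, Kit and Slamf1 were named after their values were seen, as were the length bins. The members and lists were chosen with earlier results of these data known. Alternatives were other pseudocounts, minimum levels, fold thresholds, scalings and the mean of a list. The computation was tested on simulated data. Python 3.11.15, pandas 2.3.3 and scipy 1.17.1 were used.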

Additional observations from a re-analysis of the deposited data

How the results depend on the processing

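On a TPM scale (total of 1000000 in each library), the median of all genes moved from -0.01 to -0.15, and the log2 ratios became -0.11 for Gas5, 0.013 for Snhg1, -0.0034 for Snhg5 (from 0.14, a change of sign), 0.10 for Snhg6, -0.40 for Snhg12, -0.69 for Malat1 and -0.64 for Neat1. The sums became -0.070 for the hosts and -0.69 for Malat1 with Neat1, and 1 member, Snhg3, counted as 2-fold higher in place of 0. The median of the 6 hosts became -0.055 (-0.0034 with Snhg3). List medians became 0.036 for protein-coding hosts, -0.014 for snoRNA particle proteins, -0.15 for nonsense-mediated decay, -0.13 for speckle and paraspeckle proteins, -0.23 for other named lncRNAs (-0.21 for the genes that pass the minimum as deposited) and -0.0043 for TOP genes. Scaled without mitochondrial genes, values were -0.029 for Gas5, -0.61 for Malat1, -0.62 for the sum of Malat1 and Neat1, 0.11 for protein-coding hosts, -0.052 for speckle and paraspeckle proteins and 0.074 for TOP genes. Neat1 was -0.29 with a pseudocount of 5. Relative to genes of like exon length, chosen after seeing the data, Snhg5 was 0.055, Malat1 -0.48 and Neat1 -0.24. At 1.5-fold, 2 members were lower on the TPM scale and 1 without mitochondrial genes, in place of 0. These combinations, and scaling with a fixed set of genes, were also chosen after seeing the data. The other 151 of 186 values moved by no more than their counting error, or kept their count. That does not mean that they stayed the same. On the TPM scale Snhg8 also changed sign, from 0.0014 to -0.15, and the median of other noncoding hosts went from -0.14 to -0.29. The causes were not tested. No paired analysis was possible because each genotype had 1 library, which also left no library to leave out. Depth limits Snhg3 and Snord87.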
